A study of Rattus norvegicus with 46 samples.

Results

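Kidneys of Vehicle animals were compared between 24 h and 3 h of reperfusion, which asks how gene expression moved on within an injured kidney that had been given no drug. The members are the 9 arrays labelled saline-injured at 24 h (4 arrays) or 3 h (5 arrays), of 46 arrays in all, with 1 kidney per array. The animals were male Wister rats of 200 to 300 g that were given saline intraperitoneally before surgery. A clamp on the left renal artery gave 45 min of warm ischemia and was released, and the right kidney was then removed. Both groups shared the anesthesia, the saline, the clamp and the nephrectomy, while 5 naïve rats of the same strain, sex and weight had no injury and no treatment. Animals studied at 3 h stayed under anesthesia until sacrifice, whereas animals studied at 24 h woke and received buprenorphine for pain. By the study's account, the 3 h experiments were also done before those at 24 h. The time of reperfusion thus cannot be told apart from anesthesia, analgesia or the order of the experiments. The time of day of sacrifice and the plate on which each array was processed are not given in the labels. Matched groups that received dexamethasone (Dex, 3 mg/kg) or valproic acid (VPA, 150 mg/kg) before the same injury, with 4 or 5 arrays each at 3 h and 24 h, were used for comparison.

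Reperfusion of an ischemic kidney is known to be followed by waves of transcription. Immediate-early transcription factors and heat shock chaperones are induced within hours. Surviving tubular cells later lose part of their transport program and re-enter the cell cycle, and the proximal tubule, the segment that reabsorbs most of the filtrate, is the segment most exposed to this injury. RNA was taken from pieces of whole kidney, in which fewer cells of a type and less RNA per cell cannot be told apart. The tubular label was borne out by high signals of segment markers in the 3 h kidneys: the phosphate transporter Slc34a1 read 4000 to 4838, uromodulin (Umod), the major protein of the thick ascending limb, 3227 to 4833, and the water channel Aqp2 of the collecting duct 760.0 to 2714.

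The values are array signals, which are linear and have no depth, and changes were computed on the log2(signal + 16) scale as 24 h minus 3 h with their SE. Of 29214 probe sets, the 14607 with the higher SD over the 46 arrays were tested. Calls required both an adjusted p under 0.05 and a difference of 2-fold or more (limma with all groups in 1 fit, Benjamini-Hochberg adjustment over the probe sets tested), and adjusted p-values throughout are of this kind. "Rose" and "fell" are used only of called probe sets. Counts for gene lists are given out of the members measured, and members that were not tested could not be called.

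One of the 4 arrays at 24 h stood apart. The array labelled Vehicle 24 h replicate 1 lay at a root mean square log2 distance of 0.318 from the mean of the 3 h arrays. Its distance from the mean of the other 24 h arrays was 0.751. Among the naïve, Vehicle 3 h and Vehicle 24 h arrays, its highest correlation, 0.98638, was with Vehicle 3 h replicate 3. The other 3 arrays at 24 h lay 0.638 to 0.721 from the 3 h mean. Of the 14 arrays labelled 24 h in Vehicle, Dex and VPA animals, 11 were nearest to a 24 h group and 1, this array, was nearest to a 3 h group. The remaining arrays labelled 24 h were nearest to the naïve group (1 array) and to a 120 h group (1 array). None of the 14 arrays labelled 3 h was nearest to a 24 h group, while 13 were nearest to a 3 h group and 1 to the naïve group. The label was kept, and the counts and the main genes are given with the array and with it left out. Vehicle 3 h replicate 1 also stood apart, at 0.895 from the other 3 h arrays, with a median signal of 87.49 against 64.69 to 70.59 on the other 4 and with the highest red blood cell score of the group.

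With all 9 arrays, 558 probe sets were called, 3.82% of those tested, of which 273 (1.87%) were higher and 285 (1.95%) lower at 24 h. These comprised 474 probe sets with 1 gene symbol, 22 with several symbols and 62 with none, and they covered 213 genes that rose and 247 that fell. The median change over all tested probe sets was 0.01, on signals that had been normalized between arrays. With no fold threshold, 1923 probe sets were called higher and 812 lower, so that the near-equal counts depended on the 2-fold threshold. With Vehicle 24 h replicate 1 left out, 1410 probe sets were called (9.65%), 744 higher (5.09%) and 666 lower (4.56%), and all 558 were among them. With any other 24 h array left out, 152 to 179 of the 558 kept their call, and with any of the 3 h arrays left out 425 to 483 did. All 558 kept their direction in each of these fits. A fit of the 9 arrays alone called 0 probe sets in limma, with a smallest adjusted p of 0.0968, although 304 were higher and 343 lower at an unadjusted p under 0.05 and 2-fold. The same fit of the 8 arrays without Vehicle 24 h replicate 1, added after seeing the data, called 736 higher and 665 lower, including 553 of the 558. The background for list counts that follow is 1.87% higher and 1.95% lower with all arrays. For counts without Vehicle 24 h replicate 1 it is 5.09% and 4.56%.

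**Figure D1:**
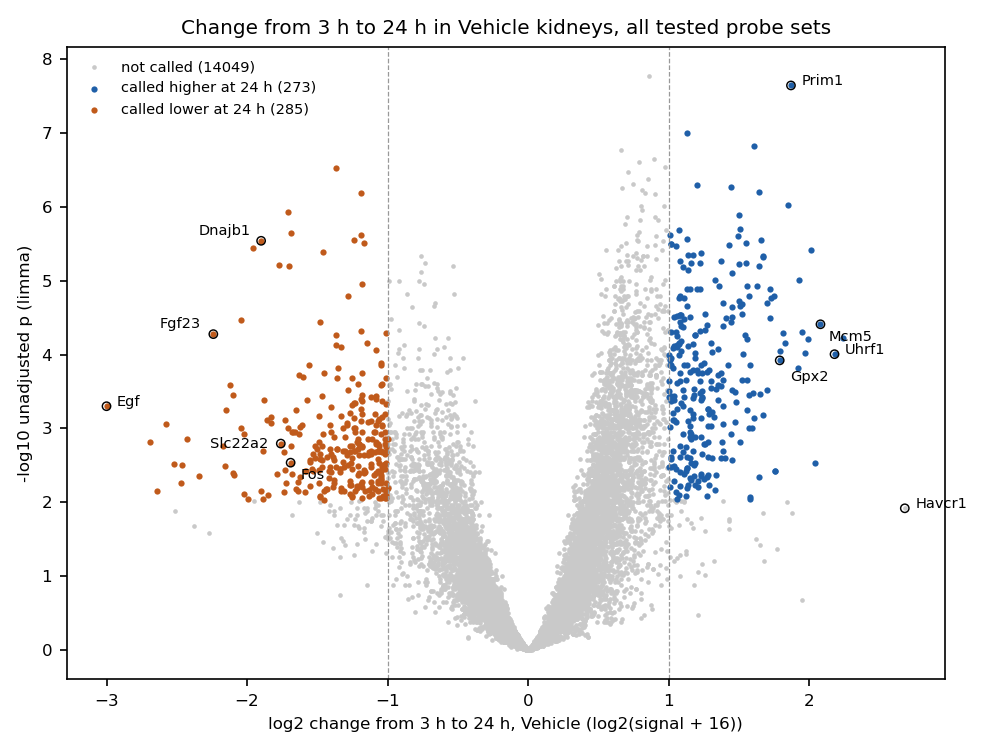
Change from 3 h to 24 h in Vehicle kidneys (x axis, log2) against the unadjusted p on a -log10 scale (y axis) for the 14607 tested probe sets, with the 273 called higher in blue, the 285 called lower in orange and the others in grey. Egf lies farthest to the left among the genes circled, and Havcr1 lies farthest to the right but is not called.

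**Figure D2:**
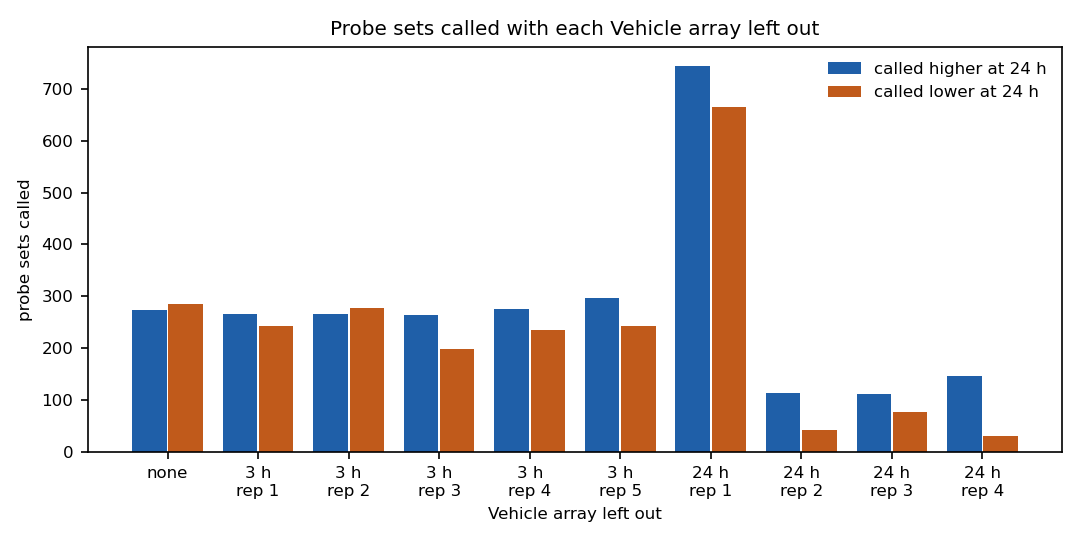
Number of probe sets called higher (blue) and lower (orange) at 24 h with all 9 Vehicle arrays and with each array left out in turn (x axis). The count was highest, 744 higher and 666 lower, without 24 h replicate 1.

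Genes of DNA replication, which copy the genome in S phase, rose as a group. Of 41 measured members of a list of 45 replication genes, 32 rose and none fell, and all 41 had a change above 0, from 0.36 to 2.18 with a median of 1.49, while the median over all genes was 0.03. With Vehicle 24 h replicate 1 left out, 39 rose with a median change of 1.99, and with each other 24 h array left out 26 to 29 did. The list's score, the mean log2 difference from the naïve mean over its members, was -0.32 to -0.19 on the 3 h arrays, -0.34 on Vehicle 24 h replicate 1 and 1.45 to 1.75 on the other 3 arrays at 24 h.

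Mcm5, a subunit of the helicase that opens DNA at replication origins, had signals of 34.29, 34.45, 38.59, 31.42 and 61.42 at 3 h and of 27.29, 398.8, 416.4 and 368.4 at 24 h. Signals are listed in the order of the replicate numbers, so that the first array at 24 h is Vehicle 24 h replicate 1. The last 3 arrays at 24 h were thus far above every 3 h array, and the first was below them all. Mcm5 rose by 2.08 ± 0.45 (adjusted p = 0.0023), and by 2.90 (adjusted p = 6.7e-07) without that array. The naïve arrays read 50.55 to 59.89, above 4 of the 5 arrays at 3 h and beneath replicate 5. Uhrf1, which carries DNA methylation through replication, rose most of the list, by 2.18 ± 0.51 (adjusted p = 0.0038), and by 2.90 (adjusted p = 2e-05) without Vehicle 24 h replicate 1. Its signals were 15.22, 7.954, 19.50, 21.08 and 25.46 at 3 h and 18.37, 231.5, 293.6 and 182.0 at 24 h. The same split was seen here, with the first 24 h array inside the 3 h range.

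The primase subunit Prim1, which lays the RNA primers of new strands, had the lowest adjusted p of the list, 1.6e-04, with a rise of 1.87 ± 0.27, and of 2.32 (adjusted p = 2.3e-08) without the first 24 h array. Its signals were 216.0, 99.18, 82.31, 145.5 and 124.0 at 3 h and 187.9, 733.1, 780.6 and 593.8 at 24 h. Pold2, an accessory subunit of DNA polymerase delta, read 129.0, 84.86, 119.7, 109.7 and 131.2 at 3 h and 155.2, 527.2, 507.1 and 493.1 at 24 h. Its groups did not overlap even with the first 24 h array, which was nearest to the 3 h arrays, and it rose by 1.61 ± 0.26 (adjusted p = 4.8e-04), and by 2.02 (adjusted p = 8.6e-08) without that array. Rises were also called for the catalytic subunits Pole (2.01) and Pold1 (1.85), for Mcm6 (1.97), the origin recognition subunit Orc1 (1.66), the licensing factors Cdc6 (1.58) and Cdt1 (1.56), the ribonucleotide reductase subunit Rrm2 (1.61), the clamp Pcna (1.05) and the transcription factor E2f1 (1.72), an activator of such genes. Members that did not pass 2-fold included Orc6 (0.97 ± 0.22, adjusted p = 0.0034), the clamp loader subunit Rfc4 (0.92 ± 0.22, adjusted p = 0.0046) and Gins3 (0.65 ± 0.20, adjusted p = 0.021). Orc6 and Rfc4 were called with Vehicle 24 h replicate 1 left out.

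Promoter sequences are shown because members of this list moved together. They are RefSeq sequences of GRCr8, 150 bases long, within the 250 bases before the gene's start, and a match of letters in them is a description, not a site that was measured. The motifs here and for the lists that follow were chosen after the lists' values were seen. Either of the E2F letters TTTCCCGC and TTTGGCGC, searched on both strands, stood in 7 of the 33 replication promoters that had an entry (21.2%) and in 1.26% of all 27457 promoters. The match is in capitals in the promoters of Mcm5 (chr19:13488663-13488812, plus strand) and Mcm6 (chr13:42404353-42404502, minus strand), 2 of the 5 matched genes that rose, of 25 called genes with an entry.
Mcm5: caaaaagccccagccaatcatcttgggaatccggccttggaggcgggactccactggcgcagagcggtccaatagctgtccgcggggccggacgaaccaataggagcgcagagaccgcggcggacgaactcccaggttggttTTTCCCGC
Mcm6: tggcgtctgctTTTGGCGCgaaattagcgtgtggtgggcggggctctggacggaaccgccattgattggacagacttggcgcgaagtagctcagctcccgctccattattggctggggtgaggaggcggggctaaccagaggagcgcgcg

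Mitosis follows replication in the cell cycle. Of 49 measured members of the mitosis list, 17 rose and none fell, with a median change of 0.94 and a range of -0.53 to 1.67. The count was 36 with Vehicle 24 h replicate 1 left out and only 3, 5 and 7 with 24 h replicate 2, 3 or 4 left out, and ordinary analysis of variance called 14. Cyclin A2 (Ccna2), which acts in S phase and on into mitosis, rose by 1.67 ± 0.45 (adjusted p = 0.010), and by 2.24 (adjusted p = 1.9e-04) without Vehicle 24 h replicate 1. It read 67.38, 65.48, 65.21, 57.02 and 120.6 at 3 h and 72.13, 464.4, 437.1 and 319.6 at 24 h, so that 3 arrays at 24 h were above all 3 h arrays. The mitotic kinase Cdk1 rose by 1.29 ± 0.44 (adjusted p = 0.037), from 75.51, 47.05, 53.99, 45.80 and 115.4 to 54.96, 322.3, 309.3 and 171.9. Its call was lost without 3 h replicate 2, 3 or 4 and without 24 h replicate 2, 3 or 4. Aurora kinase B (Aurkb, 1.48), the checkpoint kinase Bub1 (1.29) and the midzone kinesin Kif23 (1.24) also rose. Cyclin B1 (Ccnb1, 0.99 ± 0.40, adjusted p = 0.078), cyclin B2 (Ccnb2, 0.53 ± 0.34, adjusted p = 0.31) and Aurora kinase A (Aurka, 0.37 ± 0.27, adjusted p = 0.38) were not called, and of these only Ccnb1 was called without Vehicle 24 h replicate 1. Among 15 histone genes taken by name, 4 rose, namely H1f1 (1.56), H2ac1 (1.12), H2ac4 (1.12) and H1f5 (1.05), and 9 did so without that array against 1, 0 and 1 without the others.

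The letters TTTGAA of the cell cycle homology region, searched on both strands, stood in 21 of the 42 mitosis promoters with an entry (50%) and in 16% of all promoters. Of 14 called genes with an entry, 9 had them. The promoters of Kif23 (chr8:71320585-71320734, minus strand) and Cdk1 (chr20:19265143-19265292, plus strand) are shown with the letters in capitals, once and 2 times respectively.
Kif23: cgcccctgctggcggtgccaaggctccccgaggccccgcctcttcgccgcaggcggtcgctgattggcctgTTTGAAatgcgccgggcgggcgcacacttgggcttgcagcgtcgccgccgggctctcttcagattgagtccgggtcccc
Cdk1: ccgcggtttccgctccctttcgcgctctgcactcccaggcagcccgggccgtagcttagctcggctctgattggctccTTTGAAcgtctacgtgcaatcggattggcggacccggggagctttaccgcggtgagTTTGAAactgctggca

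**Figure D3:**
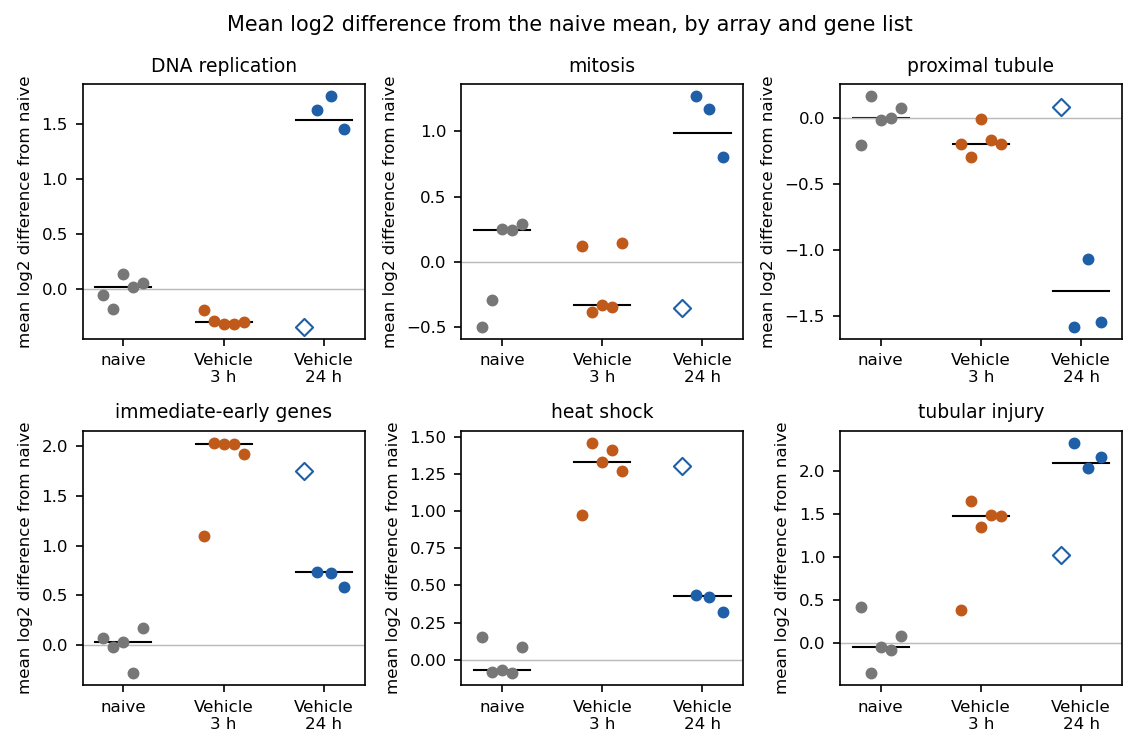
Score of 6 gene lists on each array (y axis, mean log2 difference from the naïve mean over the measured genes of a list) in naïve, Vehicle 3 h and Vehicle 24 h kidneys, with a line at each group's median and the array labelled Vehicle 24 h replicate 1 as an open diamond. That array lies at the level of the 3 h arrays for DNA replication (-0.34) and heat shock (1.30), while the other 3 arrays at 24 h lie apart from all 3 h arrays in each of the 6 panels.

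Genes that were high at 3 h and fell by 24 h were led by the immediate-early genes, many of which encode transcription factors. Cells switch such genes on within minutes of a stimulus without new protein synthesis. Of 28 measured members of the list, 10 fell and none rose, with a median change of -0.87. The counts were 16 without Vehicle 24 h replicate 1 and 3 without any one of the other 24 h arrays. The list's score was 1.1 to 2.03 on the 3 h arrays, 1.75 on Vehicle 24 h replicate 1 and 0.58 to 0.74 on the other 3 arrays at 24 h. The lowest of the 3 h scores was that of Vehicle 3 h replicate 1, and 12 members fell when that array was left out.

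Fos, which pairs with Jun to form the AP-1 factor, had signals of 577.6, 973.9, 830.8, 814.9 and 609.2 at 3 h and of 696.9, 166.9, 99.20 and 190.6 at 24 h. Its first 24 h array lay within the 3 h range and the other 3 far beneath it. Fos fell by 1.69 ± 0.53 (adjusted p = 0.024) on the log2 scale, and its change was -2.22 (adjusted p = 0.0017) without that array. Jun read 1960, 2565, 2820, 3040 and 2839 at 3 h and 2412, 564.2, 693.6 and 503.0 at 24 h, and fell by 1.63 ± 0.40 (adjusted p = 0.0054), with -2.14 (adjusted p = 6.7e-05) without the first 24 h array. Its call held when any of the 9 arrays was left out, whereas that of Fos was lost without 24 h replicate 2, 3 or 4. The nuclear receptor Nr4a3 (-1.96), Fosb (-2.04), Nr4a1 (-1.35), Arc (-1.34) and the zinc finger factor Egr1 (-1.49) also fell. Junb (-0.77 ± 0.35, adjusted p = 0.12) and Jund (-0.88 ± 0.28, adjusted p = 0.026, short of 2-fold) were not called with all arrays. Fosl1, a later Fos family member, was not called either (0.06 ± 0.70, adjusted p = 0.97). It read 348.4, 404.0, 407.5 and 257.1 at 24 h and 384.8 to 558.2 on 4 of the 3 h arrays, against 4.552 to 13.94 in naïve kidneys, and the remaining 3 h array, replicate 1, read 63.68.

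Feedback regulators of kinase signalling are induced by the same stimuli. Of 17 measured members, 3 fell, with a median change of -0.32, namely the phosphatases Dusp8 (-1.37 ± 0.30, adjusted p = 0.0027) and Dusp1 (-1.25 ± 0.31, adjusted p = 0.0056), which switch off MAP kinases, and the EGF receptor inhibitor Errfi1 (-1.01 ± 0.25, adjusted p = 0.0058), and 4 fell without Vehicle 24 h replicate 1 and 2 without any other 24 h array. Dusp1 read 1651 to 2840 at 3 h, 2109 on the first 24 h array and 671.3 to 815.2 on the others, which overlapped its naïve range of 656.8 to 1481. The serum response CArG box stood in 4 of the 17 immediate-early promoters with an entry (23.5%) and in 1.5% of all promoters, counted on both strands.

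Heat shock genes, whose products refold proteins damaged by stress, formed the next group. Of 25 measured members of the list, 7 fell and none rose, with a median change of -0.56. The count was 8 without Vehicle 24 h replicate 1 and 5 or 6 without another 24 h array, against 3 for the longer immediate-early list. Dnajb1, a co-chaperone of Hsp70, read 1551, 2488, 2622, 2480 and 2376 at 3 h and 2167, 412.4, 404.2 and 334.9 at 24 h, with naïve arrays at 280.8 to 329.9. The 3 last arrays at 24 h had thus come close to the naïve level without reaching it. Dnajb1 fell by 1.90 ± 0.35 (adjusted p = 8.6e-04), with a change of -2.52 (adjusted p = 2e-07) without the first 24 h array. The co-chaperone Bag3 was nearly level on the 3 h arrays, at 1573, 1564, 1545, 1540 and 1479, and read 1502, 345.1, 353.7 and 243.4 at 24 h. It fell by 1.70 ± 0.33 (adjusted p = 9.7e-04), with -2.26 (adjusted p = 5.1e-07) without that array. The Hsp110 chaperone Hsph1 fell by 1.45 ± 0.35 (adjusted p = 0.0052), and its groups did not overlap, with 2917 to 3077 at 3 h and 2892, 918.0, 1012 and 504.3 at 24 h.

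The other members that fell were the Hsp40 co-chaperones Dnaja4 (-1.69), Dnajb4 (-1.19) and Dnaja1 (-1.17) and the small heat shock protein Hspb1 (-1.16). Hspb1 still read 1126 to 1339 on the last 3 arrays at 24 h against 185.2 to 751.9 in naïve kidneys, and its call was lost when any array other than Vehicle 24 h replicate 1 was left out. A probe set assigned to Hspa1b and Hspa1a together, the inducible Hsp70 genes, read 1209, 1162, 1522, 721.2 and 839.0 at 3 h and 1385, 152.7, 188.4 and 59.68 at 24 h. This probe set, labelled Hspa1_10831298 for both genes, fell by 2.12 ± 0.53 (adjusted p = 0.0063), while one shared with Hspa1l, Hspa1_10828154, was not called (-1.38 ± 0.54, adjusted p = 0.068). Copies of these genes are near-identical, so the signals cannot be assigned to one of them. The mitochondrial chaperonin Hspd1 had a change of -0.56 ± 0.13 (adjusted p = 0.0049), short of 2-fold, and Zfand2a, an arsenite-inducible gene, was not called (-0.90 ± 0.48, adjusted p = 0.19).

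The heat shock element letters GAANNTTC, which read the same on both strands, stood in 11 of the 21 heat shock promoters with an entry (52.4%) and in 7.02% of all promoters. Of the 6 called genes with an entry, 5 had them. They are in capitals in the promoters of Dnajb1 (chr19:41431142-41431291, minus strand), Bag3 (chr1:192533310-192533459, plus strand) and Hsph1 (chr12:10427218-10427367, plus strand), the 3 genes described first.
Dnajb1: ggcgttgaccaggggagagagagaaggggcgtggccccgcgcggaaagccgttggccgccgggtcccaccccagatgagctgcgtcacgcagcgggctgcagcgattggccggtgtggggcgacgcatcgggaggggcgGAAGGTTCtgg
Bag3: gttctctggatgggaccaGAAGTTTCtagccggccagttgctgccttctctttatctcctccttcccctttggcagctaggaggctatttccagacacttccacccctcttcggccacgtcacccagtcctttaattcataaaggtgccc
Hsph1: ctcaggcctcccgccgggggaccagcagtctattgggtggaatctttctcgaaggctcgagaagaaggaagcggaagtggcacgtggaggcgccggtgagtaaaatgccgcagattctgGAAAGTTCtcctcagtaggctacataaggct

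Within the integrated stress response and the folding machinery of the endoplasmic reticulum, 21 members were measured and 16 of them tested. Of these 2 fell and none rose, with a median change of -0.42 over the 21. These were Herpud1, a component of ER-associated degradation (-1.46 ± 0.27, adjusted p = 9.2e-04), and Ddit3, the stress factor CHOP (-1.28 ± 0.26, adjusted p = 0.0015). Herpud1 read 1098, 1403, 982.7, 1463 and 1126 at 3 h and 964.7, 322.0, 406.4 and 257.5 at 24 h, without overlap, and the last 3 arrays lay under the naïve range of 527.5 to 841.9. Atf4, which drives this response, was not called (-0.08 ± 0.20, adjusted p = 0.85) and read 1567 to 1926 at 24 h against 710.9 to 1203 in naïve kidneys. Atf3, a stress factor of the same family, was not called with all arrays (-1.68 ± 0.66, adjusted p = 0.069) but was without Vehicle 24 h replicate 1 (-2.19, adjusted p = 0.014). In all, 4 members fell without that array and 2 without any other 24 h array.

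Targets of NRF2, the regulator of antioxidant genes, did not move one way. Of 16 measured, of which 11 were tested, 2 rose, the glutathione peroxidase Gpx2 (1.79 ± 0.42, adjusted p = 0.0043) and the quinone reductase Nqo1 (1.40 ± 0.43, adjusted p = 0.022). Gpx2 read 639.7, 650.4, 575.4, 1138 and 473.9 at 3 h and 697.7, 3482, 3085 and 3974 at 24 h, so that its last 3 arrays stood apart from all others. Heme oxygenase Hmox1 was not called (-1.03 ± 0.40, adjusted p = 0.068), with signals of 421.2 to 846.9 at 3 h and of 825.0, 297.1, 265.0 and 196.6 at 24 h against 9.664 to 29.86 in naïve kidneys. It was called lower without Vehicle 24 h replicate 1 (-1.44, adjusted p = 0.0060), as was the glutathione synthesis enzyme Gclc (-1.29, adjusted p = 0.0026). In all, 3 members rose and 3 fell when that array was left out, with a median of 0.13, and 1 rose and none fell without any other 24 h array.

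Cytokines and chemokines recruit and direct immune cells. Of 25 measured, of which 22 were tested, 1 fell (4.55% of those tested, beside 1.95% of all tested probe sets) and none rose, with a median change of 0.07. The gene that fell was interleukin 6 (Il6), with signals of 17.77, 221.6, 110.4, 115.9 and 151.3 at 3 h and 87.90, 38.22, 14.77 and 19.89 at 24 h. Il6 fell by 1.23 ± 0.35 (adjusted p = 0.013), and the call was lost without 3 h replicate 2 or 24 h replicate 3 or 4. Interleukin 1 beta (Il1b) was not called (-0.03 ± 0.36, adjusted p = 0.96), and the monocyte attractant Ccl2 had a change of 0.56 ± 0.61 (adjusted p = 0.60). Of 12 NF-kB feedback and endothelial adhesion genes, of which 11 were tested, limma called 0 and ordinary analysis of variance 0. At an unadjusted p under 0.05, 0 were higher and 2 lower. The median over these 12 was -0.08, and 1 fell when Vehicle 24 h replicate 1 was left out. Among the genes of interferon response, limma likewise called 0 of 20, with 2 higher and 1 lower at an unadjusted p under 0.05, 0 by ordinary analysis of variance and 2 higher without that array.

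Growth factors included the gene with the largest fall of all called genes. Egf, the epidermal growth factor precursor made by the distal tubule, read 3188, 2399, 2574, 2499 and 2512 at 3 h and 2660, 109.4, 212.2 and 136.8 at 24 h. The 3 h arrays and the first 24 h array lay at the naïve level of 2297 to 3529, and the last 3 arrays lay far beneath it. Egf fell by 3.00 ± 0.79 (adjusted p = 0.0089), with -4.01 (adjusted p = 1.4e-04) without the first 24 h array, and the call was lost without 24 h replicate 2 or 4. It was the only one of 12 measured EGF family ligands and receptors, all tested, that was called (8.33%, beside 1.95% of all tested probe sets called lower). The heparin-binding ligand Hbegf was not called (-0.71 ± 0.56, adjusted p = 0.42) and read 230.0 to 609.7 at 3 h and 170.6 to 517.1 at 24 h, against 14.86 to 41.89 in naïve kidneys.

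Fgf23, a phosphate-lowering hormone known mainly from bone, read 578.3, 416.3, 428.7, 183.1 and 371.7 at 3 h and 607.5, 27.15, 28.01 and 22.82 at 24 h, while naïve arrays read 1.436 to 13.20. It was thus high on all 3 h arrays and on the first 24 h array. Fgf23 fell by 2.24 ± 0.50 (adjusted p = 0.0026) and by more without that array, with a change of -3.21 (adjusted p = 2e-07), and its call held when any array was left out. Of 22 measured hypoxia and glycolysis genes, 15 were tested and 2 fell (13.3%, beside 1.95% of all tested probe sets). These were hexokinase Hk2 (-1.03 ± 0.37, adjusted p = 0.046) and Ankrd37 (-1.05 ± 0.26, adjusted p = 0.0063), and the median over the 22 was -0.11. The count was 3 without Vehicle 24 h replicate 1 and 0, 1 and 0 without 24 h replicate 2, 3 or 4. The angiogenic factor Vegfa did not reach 2-fold (-0.69 ± 0.19, adjusted p = 0.011), although its groups did not overlap, with 1262 to 1608 at 3 h and 706.8 to 1233 at 24 h.

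**Figure D4:**
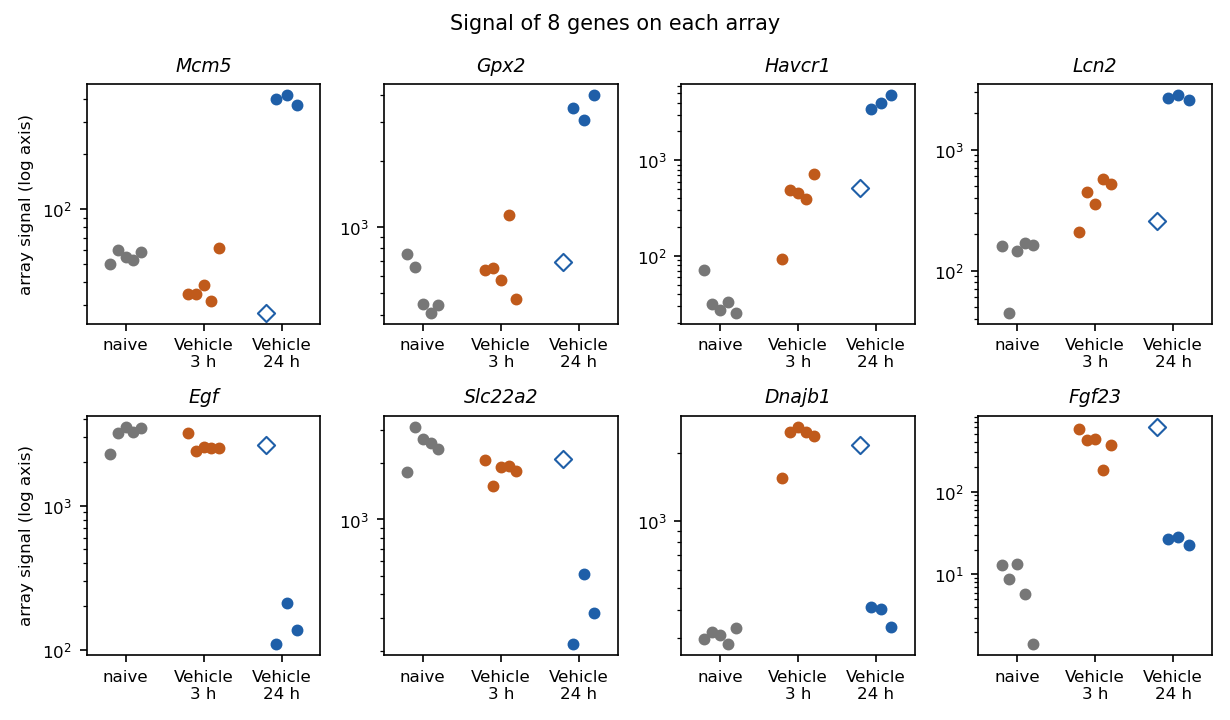
Signal of 8 genes on each array (y axis, log scale, own range per panel) in naïve, Vehicle 3 h and Vehicle 24 h kidneys, with Vehicle 24 h replicate 1 as an open diamond. The last 3 arrays at 24 h sit at 109.4 to 212.2 for Egf and at 22.82 to 28.01 for Fgf23, while the diamond sits at 2660 and 607.5.

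Genes that mark injured tubules had a score of 0.37 to 1.65 on the 3 h arrays, 1.02 on Vehicle 24 h replicate 1 and 2.03 to 2.33 on the other 3 arrays at 24 h. With all arrays, however, 1 of 27 measured members was called, of 26 tested (3.85%, beside 1.95% of all tested probe sets called lower). That was Sox9, a transcription factor of regenerating tubule, which fell by 1.08 ± 0.32 (adjusted p = 0.017). It read 608.6 to 1153 at 3 h, 931.1 on the first 24 h array and 301.4 to 368.9 on the others, beneath its naïve range of 449.8 to 908.9. The median change of the list was 0.57, and 8 members rose and 1 fell without Vehicle 24 h replicate 1, while none was called without any other 24 h array. Kidney injury molecule 1 (Havcr1) read 93.04, 490.2, 458.9, 395.8 and 723.8 at 3 h and 507.7, 3446, 4016 and 4772 at 24 h, with naïve arrays at 25.55 to 71.97. Its change of 2.68 ± 1.02 was the largest of the list but missed the threshold (adjusted p = 0.060), and was 3.41 (adjusted p = 0.013) without the first 24 h array. Lipocalin 2 (Lcn2) read 208.0, 442.6, 354.1, 573.6 and 522.6 at 3 h and 255.6, 2692, 2814 and 2582 at 24 h. The same was true of its call, with 1.88 ± 0.74 (adjusted p = 0.066) and 2.71 (adjusted p = 0.0040) without that array. The inhibitor of matrix proteases Timp1 had values of 1.26 ± 0.54 (adjusted p = 0.094) and 1.67 (adjusted p = 0.022), and clusterin (Clu) was called in neither (0.73 ± 0.49, adjusted p = 0.33).

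The proximal tubule list holds transporters and enzymes of that segment. Of 32 measured members of a list of 39, 9 fell and none rose, 31 had a change under 0, and the median was -0.81. Without Vehicle 24 h replicate 1 the count was 23 with a median of -1.13, whereas 0, 3 and 0 fell without 24 h replicate 2, 3 or 4. At an unadjusted p under 0.05, 27 were lower. The list's score was -0.30 to -0.01 on the 3 h arrays, 0.08 on Vehicle 24 h replicate 1 and -1.58 to -1.07 on the other 3 arrays. The organic cation transporter Slc22a2 read 2059, 1503, 1907, 1921 and 1799 at 3 h and 2099, 217.5, 515.1 and 318.6 at 24 h. The first 24 h array was above all 3 h arrays and the other 3 were beneath them. Slc22a2 fell by 1.76 ± 0.52 (adjusted p = 0.017), with -2.41 (adjusted p = 3.6e-04) without that array.

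The gluconeogenic enzyme Pck1 fell by 1.47 ± 0.46 (adjusted p = 0.023), from 2586, 1899, 2102, 2643 and 2288 at 3 h to 2552, 530.1, 787.3 and 406.0 at 24 h, with -2.01 (adjusted p = 7.9e-04) without the first 24 h array. Falls were also called for the amino acid transporter Slc6a18 (-1.41), the sodium-proton exchanger Slc9a3 (-1.38), the brush border protease Mep1a (-1.32), the aminopeptidase Anpep (-1.21), the organic anion transporter Slc22a8 (-1.14), the inositol oxygenase Miox (-1.07) and Hnf4a (-1.01), a transcription factor of proximal tubule identity. Slc34a1 did not reach 2-fold (-0.97 ± 0.29, adjusted p = 0.019), and the endocytic receptors Lrp2 (-0.61 ± 0.23, adjusted p = 0.052) and Cubn (-0.65 ± 0.25, adjusted p = 0.064) were not called. The HNF1 letters GTTAAT, part of that factor's motif, stood on either strand in 7 of the 31 proximal tubule promoters with an entry (22.6%) and in 6.46% of all promoters. Of 9 called genes with an entry, 5 had them, among them Pck1 (chr3:182348370-182348519, plus strand) and Slc6a18 (chr1:31436503-31436652, plus strand), where the reverse complement is in capitals.
Pck1: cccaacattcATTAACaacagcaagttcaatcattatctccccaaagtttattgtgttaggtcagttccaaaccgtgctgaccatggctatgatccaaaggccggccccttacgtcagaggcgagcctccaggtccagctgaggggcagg
Slc6a18: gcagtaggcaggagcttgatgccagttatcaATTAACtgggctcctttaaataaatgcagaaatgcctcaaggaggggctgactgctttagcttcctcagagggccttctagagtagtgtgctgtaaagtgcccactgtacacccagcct

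Of 354 solute carriers taken by name, 224 were tested. Of these, 31 fell (13.8%, beside 1.95% of all tested probe sets) and 2 rose (0.893%, beside 1.87%), and the median over all 354 was -0.15. Without Vehicle 24 h replicate 1, 61 fell and 4 rose, against 1, 5 and 1 that fell without the other 24 h arrays in turn. The 31 included the peptide transporter Slc15a2 (-2.02 ± 0.58, adjusted p = 0.014), the sugar transporter Slc5a10 (-2.15 ± 0.58, adjusted p = 0.0095) and the organic anion transporter Slco4c1 (-1.90 ± 0.67, adjusted p = 0.042). The phosphate transporter Slc34a2, best known from lung and intestine, rose by 1.76 ± 0.57 (adjusted p = 0.028). Of 67 cytochrome P450 genes by name, 44 were tested, of which 5 fell (11.4%, beside 1.95%) and 1 rose (2.27%, close to the 1.87% of all tested probe sets). The 1 that rose was Cyp3a9 (1.33 ± 0.47, adjusted p = 0.041). The median over all 67 was -0.16. Without Vehicle 24 h replicate 1, 9 fell and 2 rose, against 0, 2 and 0 that fell and none that rose without the others. Fatty acid oxidation, the main fuel route of the proximal tubule, had 20 measured members, of which 10 were tested. Of these 1 fell (10%, beside 1.95% of all tested probe sets), the peroxisomal enzyme Ehhadh (-1.06 ± 0.29, adjusted p = 0.011), and the median over all 20 was -0.28. The mitochondrial enzyme Acadm had a change of -0.72 ± 0.25 (adjusted p = 0.036), short of 2-fold, and 4 members fell without Vehicle 24 h replicate 1 against 0, 1 and 0 without 24 h replicate 2, 3 or 4.

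Farther along the nephron, 3 of 15 measured genes of the loop of Henle and distal tubule fell and 1 rose, with a median of -0.60. Umod read 4833, 3227, 4026, 4723 and 4312 at 3 h and 4502, 994.7, 1621 and 870.2 at 24 h, and fell by 1.39 ± 0.43 (adjusted p = 0.022), with -1.89 (adjusted p = 7.6e-04) without the first 24 h array. The salt cotransporter Slc12a1 of the same segment fell by 1.25 ± 0.40 (adjusted p = 0.027), and the third was Egf. In the opposite direction, the tight junction protein Cldn19 of the thick ascending limb rose by 1.23 ± 0.34 (adjusted p = 0.011). It read 336.2, 234.0, 314.4, 311.3 and 303.2 at 3 h and 203.0, 854.6, 1167 and 1273 at 24 h, so that its last 3 arrays were above and its first beneath the 3 h range. The potassium channel Kcnj1 was not called with all arrays (-1.08 ± 0.41, adjusted p = 0.057). Without Vehicle 24 h replicate 1, 6 fell and 1 rose, and without 24 h replicate 2, 3 or 4 the falls numbered 0, 1 and 0 and none rose. In the collecting duct, 1 of 14 measured genes, all tested, fell (7.14%, beside 1.95% of all tested probe sets). This was the anion exchanger Slc4a1 (-1.31 ± 0.46, adjusted p = 0.041), which red blood cells also carry, and Aqp2 was not called (0.21 ± 0.50, adjusted p = 0.84). In this list 2 fell without the first 24 h array and none without another.

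Of 12 measured glucocorticoid targets, 4 fell and none rose, with a median of -0.64, in kidneys that had received no dexamethasone. The leucine zipper protein Tsc22d3 read 635.3, 527.5, 335.6, 459.0 and 473.3 at 3 h and 328.9, 247.1, 184.7 and 143.3 at 24 h, without overlap, and fell by 1.08 ± 0.28 (adjusted p = 0.0078). Pdk4, an inhibitor of pyruvate oxidation, fell by 1.28 ± 0.32 (adjusted p = 0.0068), also without overlap, and Ddit4 (-1.02) and Errfi1 (-1.01) fell too, while Fkbp5 was not called (-0.48 ± 0.35, adjusted p = 0.37). Of 14 clock genes, 13 were tested and 1 fell (7.69%, beside 1.95% of all tested probe sets), the repressor Nfil3 (-1.08 ± 0.35, adjusted p = 0.029). Per2 (-0.99 ± 0.30, adjusted p = 0.019) and Per1 (-0.87 ± 0.29, adjusted p = 0.031) did not reach 2-fold. The glucocorticoid list had 5 falls and 1 rise without Vehicle 24 h replicate 1 and 2, 2 and 0 falls without 24 h replicate 2, 3 or 4, and the clock list 3 falls and none.

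Markers of cells other than tubules were examined in the same arrays. Limma called 0 of 23 macrophage, 18 neutrophil, 16 lymphocyte, 15 endothelial, 8 podocyte, 7 red blood cell and 7 adipocyte genes measured. It also called 0 of 21 extracellular matrix genes, 18 p53 targets and 11 genes of cholesterol synthesis. Ordinary analysis of variance called 0 in each of these lists. The genes tested, which alone could be called, numbered 22 for macrophages, 16 for neutrophils, 13 for lymphocytes, 12 for endothelium and 6 for podocytes. For red blood cells, adipocytes, matrix, p53 and cholesterol synthesis they numbered 7, 6, 21, 15 and 5. At an unadjusted p under 0.05, 0 macrophage genes were higher and 1 lower, 3 endothelial genes were higher and 3 lower, and 4 p53 targets were higher and 1 lower. In the neutrophil list 1 was higher and 1 lower, in the podocyte, matrix and cholesterol lists 1 was higher and none lower, in the lymphocyte and red blood cell lists none was higher and 1 lower, and in the adipocyte list none passed. Without Vehicle 24 h replicate 1, 1 p53 target rose and 1 macrophage and 1 neutrophil gene fell. The medians were 0.25 for macrophages, 0.33 for the matrix and -0.48 for red blood cells. The macrophage score was -0.30 to 0.69 at 3 h and 0.10 to 0.59 at 24 h, and the red blood cell score, 0.59 to 2.78 at 3 h and 0.68 to 1.12 at 24 h, was highest on Vehicle 3 h replicate 1, so that all these groups overlapped. Their part in the tubular changes was not tested.

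**Figure D5:**
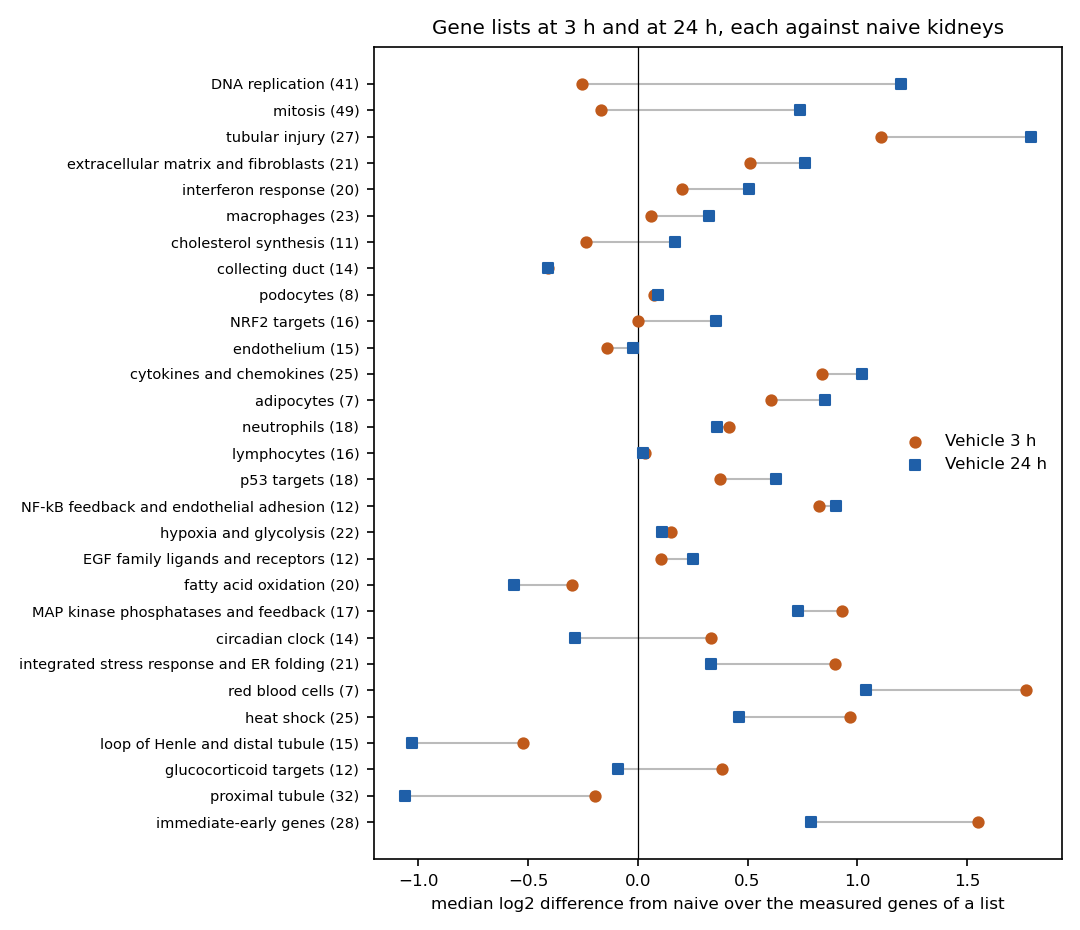
Median log2 difference from naïve kidneys (x axis) over the measured genes of each list, with their number in brackets, in Vehicle kidneys at 3 h (orange circles) and at 24 h (blue squares). Both times share the 5 naïve arrays, so the points of a list are given side by side and not compared by a test. DNA replication lies at -0.25 at 3 h and 1.20 at 24 h, and immediate-early genes at 1.55 and 0.79.

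For 595 of the tested probe sets (4.07%) the 24 h arrays did not overlap the 3 h arrays, and of these 41 were called higher and 12 lower. At the 15 largest rises with 1 symbol among these probe sets, the first 24 h array was the one nearest to the 3 h arrays; larger rises with overlap, such as Mcm5, are not among them. Of these 15, the cartilage matrix protein Ucma rose most, by 1.81 ± 0.40 (adjusted p = 0.0026), from 10.79, 9.121, 5.565, 16.21 and 16.24 at 3 h to 19.54, 95.89, 190.9 and 86.51 at 24 h. Genes of cell division among the others were cyclin E1 (Ccne1, 1.67 ± 0.32, adjusted p = 9.2e-04), which drives entry into S phase, Orc1, Pold2, the recombination proteins Rad54l (1.5) and Palb2 (1.20), the kinetochore proteins Zwilch (1.51) and Dsn1 (1.36), cyclin F (Ccnf, 1.39) and the kinesin Kif4b (1.44). Ccne1 read 38.69, 21.56, 20.37, 32.64 and 31.68 at 3 h and 45.52, 162.9, 216.4 and 138.5 at 24 h. The remaining rises were the methionine salvage enzyme Mtap (1.5), the kinase Pask (1.39), the kininogen Kng2 (1.39), the fucosyltransferase Fut9 (1.33) and the splicing protein Snrpd1 (1.27). The call of Kng2 was lost without 24 h replicate 2 or 3. That of Snrpd1 was lost without 3 h replicate 1, 2 or 5 and without 24 h replicate 2, 3 or 4. The others of the 15 kept their call whichever Vehicle array was left out.

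The largest fall without overlap was that of Apold1, a gene of activated endothelium, by 1.77 ± 0.34 (adjusted p = 9.7e-04). It read 726.9, 253.6, 191.2, 299.2 and 253.9 at 3 h and 150.9, 71.06, 44.42 and 75.42 at 24 h, where the last 3 arrays were within the naïve range of 23.13 to 78.19. Beside Herpud1, Hsph1, Pdk4, Tsc22d3 and Nfil3, already described, the 12 falls held the pre-B cell gene Vpreb3 (-1.19), the aryl hydrocarbon receptor target Cyp1a1 (-1.13), the potassium channel subunit Kcng1 (-1.09), the phosphate transporter family member Slc17a2 (-1.08), Lmntd1 (-1.05) and the aldo-keto reductase Akr1c19 (-1.01). Cyp1a1 was already under its naïve range of 77.06 to 410.2 on 4 of the 5 arrays at 3 h, which read 34.60, 39.42, 67.63, 117.4 and 50.37, and it read 20.48, 13.12, 25 and 12.41 at 24 h. Of the 12 falls, only Apold1 and Herpud1 kept their call whichever Vehicle array was left out. The call of Cyp1a1 was lost without 3 h replicate 3, 4 or 5 and without 24 h replicate 2, 3 or 4. That of Nfil3 was lost without 3 h replicate 4 and without 24 h replicate 2, 3 or 4.

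Larger falls than these were called where the first 24 h array overlapped the 3 h arrays, and the genes that follow were chosen after their values were seen. Rgn, a calcium-binding protein of liver and kidney, read 1355, 789.2, 1024, 1216 and 1093 at 3 h and 1381, 59.04, 106.2 and 48.66 at 24 h, and fell by 2.69 ± 0.79 (adjusted p = 0.017). The prostaglandin-specific organic anion transporter Slc22a22 (-2.58), the transporters Slco1a6 (-2.52) and Slc7a13 (-2.16), the dehydrogenase Dhrs7l1 (-2.47), the nuclease Dnase1 (-2.46), the histamine-degrading enzyme Hnmt (-2.34) and the phosphatase inhibitor Ppp1r1a (-2.17) showed the same pattern. All 8 had 3 arrays at 24 h beneath every 3 h array, and all 8 calls were lost when 24 h replicate 2, 3 or 4 was left out. The calls of Dhrs7l1 and Hnmt were also lost without 3 h replicate 1, 4 or 5, and that of Dhrs7l1 without 3 h replicate 3. Without the first 24 h array the changes of the 8 ran from -3.70 for Rgn to -2.87 for Ppp1r1a. Among the rises chosen in this way, Dtl (1.95 ± 0.43, adjusted p = 0.0026), an adaptor that degrades Cdt1 in S phase, the histone chaperone Asf1b (1.93), the MYC target Cdca7 (1.92) and Pold1 kept their calls when any one array was left out.

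The change from 3 h to 24 h was called for 838 probe sets in Dex kidneys (5.74%) and for 1197 in VPA kidneys (8.19%), each against its own 3 h group. These comparisons share no array with that in Vehicle kidneys, but all rest on the pooled variance of 1 fit. Of the 273 probe sets that rose in Vehicle kidneys, 200 rose in Dex kidneys (73.3%, and 59.5% of the 336 that rose with Dex) and 251 in VPA kidneys (91.9%, and 29.6% of 849). Of the 285 that fell, 152 fell in Dex kidneys (53.3%, and 30.3% of 502) and 207 in VPA kidneys (72.6%, and 59.5% of 348). The direction of change was the same for 271 and 283 of them in Dex and for all in VPA kidneys. Of all tested probe sets, 60.3% had a higher mean at 24 h in Dex and 46.5% in VPA kidneys. The replication list had 32 members that rose in Dex and 38 in VPA kidneys, and the immediate-early list 19 that fell in Dex and 8 in VPA kidneys. The VPA 3 h arrays were uneven for that list, with a score of 0.06 to 1.99 and a median of 1.96, and Fos read 47.92, 1035, 119.1, 856.4 and 943.8 on them. The part of this spread in the count was not tested. Egf had a change of -1.97 ± 0.79 in Dex (adjusted p = 0.070) and fell by 3.06 ± 0.75 in VPA kidneys (adjusted p = 0.0018).

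The difference itself was called for 3 probe sets against Dex (0.0205%) and 1 against VPA (0.00685%), and for 2 and 1 without Vehicle 24 h replicate 1. Relt, a member of the tumor necrosis factor receptor family, read 22.44 to 34.49 at 3 h and 24.44 to 38.56 at 24 h in Vehicle kidneys. In Dex kidneys it read 118.4, 134.7, 210.8 and 220.1 at 3 h and 24.23, 13.79, 11.15, 2.603 and 15.71 at 24 h. Its change differed by 2.78 ± 0.39 (adjusted p = 1.2e-04). Amd1, an enzyme of polyamine synthesis, read 539.7 to 986.0 at 3 h and 583.1 to 679.1 at 24 h in Vehicle kidneys, and 1456 to 2085 and 572.6 to 634.0 in Dex kidneys, a difference of 1.32 ± 0.19 (adjusted p = 1.2e-04). Edem1, which sorts misfolded proteins for degradation, differed by 1.02 ± 0.16 (adjusted p = 6.3e-04), with 1508 to 1985 at 3 h and 631.8 to 840.1 at 24 h in Dex kidneys. Rundc3b differed from VPA by 1.12 ± 0.19 (adjusted p = 0.0091), with 76.84 to 105.2 at 3 h and 30.81 to 50.57 at 24 h in VPA kidneys and overlapping Vehicle groups. None of the 4 was called between 3 h and 24 h in Vehicle kidneys. For Mcm5 the difference from Dex was -0.33 ± 0.64 (adjusted p = 0.95) and from VPA -0.91 ± 0.62 (adjusted p = 1), which at this spread does not show that the changes were alike.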

How the data were processed

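RNA of 46 rat kidneys was measured on Affymetrix arrays, 1 array per animal, and the report uses the 5 Vehicle arrays at 3 h and 4 at 24 h. The table the authors deposited gives a linear intensity for each probe set, which they summarised with iterPLIER and normalized between arrays (Affymetrix Expression Console 1.1 per the submitters' notes), with no logarithm. The study describes 44 arrays of which 2 were excluded, while 46 were used here. Groups came from the sample titles, all 46 columns matched a sample, and array medians of the 9 arrays were 64.69 to 87.49. The SEs and p-values rest on the spread between animals pooled over all 10 groups, not on that of the 9 Vehicle arrays alone. These 2 spreads can differ: for Mcm5 the log2 SD was 0.283 at 3 h and 1.62 at 24 h.

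Signals were transformed as log2(signal + 16), the offset of the study's methods, and all 10 groups were fitted with limma 3.58.1 in R 4.3.3 (36 residual and 4.44 prior degrees of freedom). The 14607 probe sets with the lower SD were removed, as in the study, and p-values were adjusted by the Benjamini-Hochberg method. The smallest SD kept was 0.299. The fit was tested on simulated data. By the platform annotation, 1 symbol was given for 18644 probe sets, more than 1 for 962 and no symbol for 9608, and a gene with several probe sets was represented by that of the highest mean.

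The comparison, the gene lists and the rule for naming genes were chosen with earlier results of these data known. The rule took the 15 largest rises and falls without overlap of the groups, which gave 15 and 12, from each list up to 5 called and 3 not called members, genes the study names, and the called differences from Dex or VPA. Other list members, and the genes said to be chosen after their values were seen, stand outside it. Alternatives were the adjustment over all probe sets, a filter on low signals, no fold threshold, ordinary analysis of variance, quantile normalization, only the groups compared, array weights, a replicate block, a pseudocount of 1, each gene counted once and leaving out each array. Promoters are RefSeq sequences of GRCr8 matched by symbol, and 144 list members had an entry.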

Additional observations from a re-analysis of the deposited data

Results flagged for a closer look

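Among the genes named, 242 groups of 4 or 5 arrays were tested for 1 array far from the rest, by the gap to its nearest neighbour as a share of the group's range, and 45 were found. A chance rate of about 1 in 20 would need independent groups not chosen by their values. The genes named were largely chosen from these values and share the same arrays, so the count cannot be set against that rate. Vehicle 24 h replicate 1 was far beneath the other 24 h arrays in signal at Pold2 155.2, Zwilch 78.03, Mtap 136.6, Gpx2 697.7, Mcm5 27.29, Mcm6 55.95, Orc6 23.58, Rfc4 55.26, Havcr1 507.7, Lcn2 255.6, Clu 1743, Cd180 23.1, Dtl 29.04 and Cdca7 28.12. It was far above them at Fosb 287.1, Nr4a3 342.4, Egr1 2533, Junb 1676, Jund 890.5, Dusp8 236.2, Dusp1 2109, Dnajb1 2167, Dnaja4 861.5, Hspa4l 392.8, Per2 472.3, Ddit4 729.1, Hspb1 3639, Fgf23 607.5 and Slc22a22 1896. That the other 3 arrays at 24 h lay close together, relative to the range of each of these groups, follows from the rule. Vehicle 3 h replicate 1 was far beneath the other 3 h arrays at Fosl1 63.68, Dnajb1 1551, Ankrd37 76.95, Hk2 119.2, Hbegf 230, Clu 907.2, Timp1 224 and Zfand2a 1351, and far above them at Egf 3188. Vehicle 3 h replicate 2 was low at Akr1c19 424.8, Ehhadh 598.7 and Cldn19 234. The single remaining findings were Slc34a1 4838, high on 3 h replicate 3, and Hmox1 421.2, low on 3 h replicate 4. Vehicle 3 h replicate 5 was high at Mcm5 61.42 and Ccna2 120.6. The change from 3 h to 24 h differed between Vehicle and Dex kidneys, tested as an interaction in limma, by 2.78 for Relt, 1.32 for Amd1 and 1.02 for Edem1 on the log2 scale, and between Vehicle and VPA kidneys by 1.12 for Rundc3b. None of the 4 was called in Vehicle kidneys.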

How the results depend on the processing

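With all 9 arrays, 273 probe sets were called higher and 285 lower. Higher calls numbered 1923 with no fold threshold, 670 with array weights and 482 with a pseudocount of 1, and lower calls 812 with no fold threshold and 693 with array weights. Fitting the 2 groups alone gave 0 higher and 0 lower (unadjusted p under 0.05 and 2-fold, 304 and 343), and without Vehicle 24 h replicate 1, an alternative chosen after seeing the data, 736 and 665. Leaving out 1 array gave 112 to 744 higher and 31 to 666 lower, both highest without Vehicle 24 h replicate 1 and lowest without another 24 h array. The difference from Dex was called for 3 probe sets, 7 with quantile normalization, 56 with array weights and 2 to 6 with 1 array left out. That from VPA was called for 1, 0 with the 4 groups alone and 0 to 2 with 1 array left out, with 0 without Vehicle 24 h replicate 3. With replicate number as a replicate block, 300 were higher and 308 lower, 7 differed from Dex and 1 from VPA, and 540 of the 558 called probe sets kept their call. Arrays of equal number deviated from their group means with correlations of 0.14, 0.29, -0.11 and 0.22. These were not set against arrays of unequal number, so whether the numbers pair the arrays was not tested. No call changed direction in any alternative. Of 83 called genes and probe sets named, 40 to 47 kept their call without 24 h replicate 2, 3 or 4, 70 to 75 without a 3 h array, 83 without Vehicle 24 h replicate 1 and 77 to 83 in the other alternatives that fitted all groups. Why Vehicle 24 h replicate 1 stands apart was not tested. The number of arrays limits the precision, and the offset of 16 damps changes of dim probe sets.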
